A study of Saccharomyces cerevisiae with 39 samples.

Results

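HXT1 to HXT7 are the 7 genes of Saccharomyces cerevisiae that encode its main hexose transporters, and they were followed here across 39 RNA-seq libraries of strains with an altered RNA exosome. The members were chosen by name and locus tag (YHR094C, YMR011W, YDR345C, YHR092C, YHR096C, YDR343C and YDR342C for HXT1 to HXT7), and all 7 had a row among the 8898 features of the deposited count files. The RNA exosome is the nuclease complex that trims and degrades RNA from its 3′ end; Rrp4 and Rrp40 are cap subunits, Rrp45 and Rrp46 are subunits of its barrel, and Rrp6 is its nuclear nuclease. The 13 groups held 3 libraries each, from haploid cells that lacked a chromosomal exosome gene and carried a low-copy plasmid with the LEU2 marker (CEN6, pRS315).

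The controls carried the wild-type gene on that plasmid (RRP4, RRP40, RRP45, RRP46 and RRP6), and 7 groups carried 1 missense allele each: rrp4-G226D, then rrp45-I15P, then rrp40-S87A and rrp40-W195R, and in the remaining family rrp46-L191H, rrp46-L127T and rrp46-Q86I. The rrp6Δ cells carried an empty LEU2 plasmid. Every strain was ura3Δ0, leu2Δ0 and his3Δ1. RRP4 and RRP46 strains were also lys2Δ0 and, like RRP45 strains, MATα; RRP40 strains were MATa, and RRP6 strains were MATa and met15Δ0. The chromosomal deletion was marked by NEO in rrp4Δ, rrp40Δ and rrp45Δ cells and by kanMX4 in rrp46Δ and rrp6Δ cells. Strain background, mating type and deletion cassette therefore differ between families, so each mutant was set against the control of its own family. All cultures spent 5 h at 37 °C in 10 mL of minimal medium lacking leucine; the amount of sugar in the medium, and what was left of it at harvest, are not given in the sources used here. The labels call the libraries triplicates and do not say how separate the cultures were, so p-values measure the spread between these libraries only.

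Hexoses enter the yeast cell by facilitated diffusion, and the HXT genes are turned on and off with the amount of glucose outside. Hxt1 and Hxt3 are low affinity transporters used in plentiful glucose. Hxt2, Hxt6 and Hxt7 are high affinity transporters made when glucose is scarce, Hxt4 lies between them and is induced by low glucose, and Hxt5 is made in slowly growing cells. The repressor Rgt1 shuts HXT promoters in the absence of glucose until signals from the sensors Rgt2 and Snf3 release it, whereas Mig1 represses high affinity transporter genes and genes for other carbon sources in high glucose.

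The genes lie in 2 clusters and 1 single site (genome build R64). HXT7 (chrIV:1154216-1155928), HXT6 (chrIV:1159608-1161320) and HXT3 (chrIV:1162957-1164660) follow each other on the minus strand of chromosome IV. HXT4 (chrVIII:287081-288811), HXT1 (chrVIII:290913-292625) and HXT5 (chrVIII:294669-296447) do so on the minus strand of chromosome VIII. HXT2 (chrXIII:288079-289704) stands alone on the plus strand of chromosome XIII. These intervals are the annotated coding regions, and no other coding gene of the reference overlaps any of them.

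HXT6 and HXT7 are nearly the same sequence, which bears on every value given for either. Their coding regions, 1713 bases each in the RefSeq R64 reference, were 99.8% identical and differed at 3 positions near the 3′ end, T1632C, G1666A and T1677C, counted from the A of the start codon with the HXT6 base first. The last 100 coding bases of each are shown 5′ to 3′ because they hold all 3 differences, in capitals.
HXT6 (chrIV:1159608-1159707, minus strand): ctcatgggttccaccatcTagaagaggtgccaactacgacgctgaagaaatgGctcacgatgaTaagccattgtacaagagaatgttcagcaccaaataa
HXT7 (chrIV:1154216-1154315, minus strand): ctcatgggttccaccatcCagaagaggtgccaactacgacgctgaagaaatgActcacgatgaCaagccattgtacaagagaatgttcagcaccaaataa
Of the 1614 stretches of 100 bases in each of these coding regions, only 82 (5.08%) occurred once in the genome, against 96.4% or more for each of the other 5 members. How the counting treated reads that match both genes is not given in the sources used here, so the division of reads between HXT6 and HXT7 is uncertain, and the HXT7 level may hold reads of HXT6.

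The stretch of 300 bases that begins 500 bases before the start codon is shown for 4 members, with matches to 3 motifs in capitals. Of these members, HXT4 and HXT7 followed the same course in the mutants, both called lower in the same 5. Motifs were searched on both strands: CGGANNA, the Rgt1 element; CCGGGG or CTGGGG or GCGGGG or GTGGGG, forms of the Mig1 element; and AGGGG, the stress response element read by Msn2 and Msn4. No matches of different motifs overlapped in the windows of the 7 members.
HXT1 (chrVIII:292826-293125, minus strand): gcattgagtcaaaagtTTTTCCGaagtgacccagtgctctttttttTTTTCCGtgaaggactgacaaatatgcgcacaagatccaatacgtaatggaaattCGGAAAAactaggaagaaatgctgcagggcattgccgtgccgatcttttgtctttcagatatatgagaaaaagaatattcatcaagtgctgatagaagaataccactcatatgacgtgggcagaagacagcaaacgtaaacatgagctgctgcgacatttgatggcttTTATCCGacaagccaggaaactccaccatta
HXT4 (chrVIII:289012-289311, minus strand): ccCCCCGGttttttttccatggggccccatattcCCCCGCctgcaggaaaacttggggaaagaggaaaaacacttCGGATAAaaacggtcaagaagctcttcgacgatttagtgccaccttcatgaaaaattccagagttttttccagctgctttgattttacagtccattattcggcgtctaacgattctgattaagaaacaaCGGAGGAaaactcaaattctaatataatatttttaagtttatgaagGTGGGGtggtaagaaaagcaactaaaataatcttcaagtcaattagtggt
HXT5 (chrVIII:296648-296947, minus strand): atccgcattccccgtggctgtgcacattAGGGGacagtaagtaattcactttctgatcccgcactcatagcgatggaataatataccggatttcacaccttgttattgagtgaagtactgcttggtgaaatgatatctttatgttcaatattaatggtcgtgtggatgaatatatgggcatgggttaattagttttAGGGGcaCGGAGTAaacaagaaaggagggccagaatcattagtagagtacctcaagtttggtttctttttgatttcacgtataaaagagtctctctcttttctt
HXT7 (chrIV:1156129-1156428, minus strand): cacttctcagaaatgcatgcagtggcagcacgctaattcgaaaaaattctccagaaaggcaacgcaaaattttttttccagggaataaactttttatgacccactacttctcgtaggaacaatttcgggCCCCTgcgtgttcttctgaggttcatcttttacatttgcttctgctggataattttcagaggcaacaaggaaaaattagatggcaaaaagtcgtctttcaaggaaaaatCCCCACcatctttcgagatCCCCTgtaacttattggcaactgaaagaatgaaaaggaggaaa
The HXT1 window held 4 Rgt1 matches and no match to the other motifs, and that of HXT3 held 5. Of the same window in 6019 coding genes, 28.9% held at least 1 Rgt1 match and 0.316% held 4 or more. The HXT4 window held 3 Mig1 and 2 Rgt1 matches, that of HXT6 held 3 Mig1 matches and 1 Rgt1 match, and 0.449% of all windows held 3 or more Mig1 matches. The HXT5 window held 2 stress elements and 1 Rgt1 match, and that of HXT7 held 2 stress elements and 1 Mig1 match; 3.77% of windows held 2 or more stress elements. In the HXT2 window there were 2 Rgt1 matches and 1 Mig1 match. These matches describe the letters in one window per gene and say nothing of binding in these cells.

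Each library held between 17244127 and 53642418 counts (median 35937895). Mating-type and auxotrophy genes followed the genotypes: STE2, the α-factor receptor of MATa cells, averaged 196 CPM or more in each RRP40 and RRP6 group and 14.8 CPM or less in the MATα groups, LYS2 was below 0.05 CPM in the lys2Δ0 groups, and URA3 and HIS3 were at or near 0 throughout. RRP6 mRNA averaged 3.38 CPM in rrp6Δ against 634 CPM in RRP6. Missense strains expressed their exosome gene, with RRP46 at 99.5 CPM in rrp46-Q86I against 561 CPM in RRP46. CPM is the usual depth-scaled count, in parts of the library total, scaled between libraries by TMM factors, and it is not corrected for gene length unless that is said.

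HXT3 was listed at 0 counts in every library. This does not show that HXT3 was silent, since 255 of 6007 protein-coding genes, HXT3 included, were listed at 0 throughout, among them RPB11, a subunit of RNA polymerase II that cells cannot do without. HXT3 therefore has no readable value, and HXT1 alone stands for the low affinity transporters. HXT2 was close to the limit of detection, with 6 to 58 counts per library. The 6 genes other than HXT3 passed the filter on low counts in each comparison, except that HXT2 failed it in the comparison of rrp46-L191H with rrp46-L127T.

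HXT7 and HXT4 were the abundant transporter mRNAs in every group. Per kilobase of coding sequence, the group mean of HXT7 ran from 150 CPM in rrp6Δ to 4481 CPM in RRP40, and that of HXT4 from 89.4 CPM in rrp6Δ to 2056 CPM in RRP40. HXT6 lay at 3.18 to 81.4 CPM per kilobase and HXT1 at 8.68 to 23.2, with HXT1 above HXT6 in the RRP4 and RRP6 families and in rrp40-W195R and below it in the other groups. They were followed by HXT5 at 1.78 to 4.07, and HXT2 at 0.185 to 0.409. HXT7 ranked 12 to 17 among all coding genes per kilobase in the RRP40 libraries and 386 to 503 in the RRP6 libraries. The 6 measured genes together took 0.972% ± 0.0237 of all counts in RRP40 and 0.0733% ± 0.00532 in rrp6Δ (SD, n = 3). HXT3 is missing from this share.

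**Figure D1:**
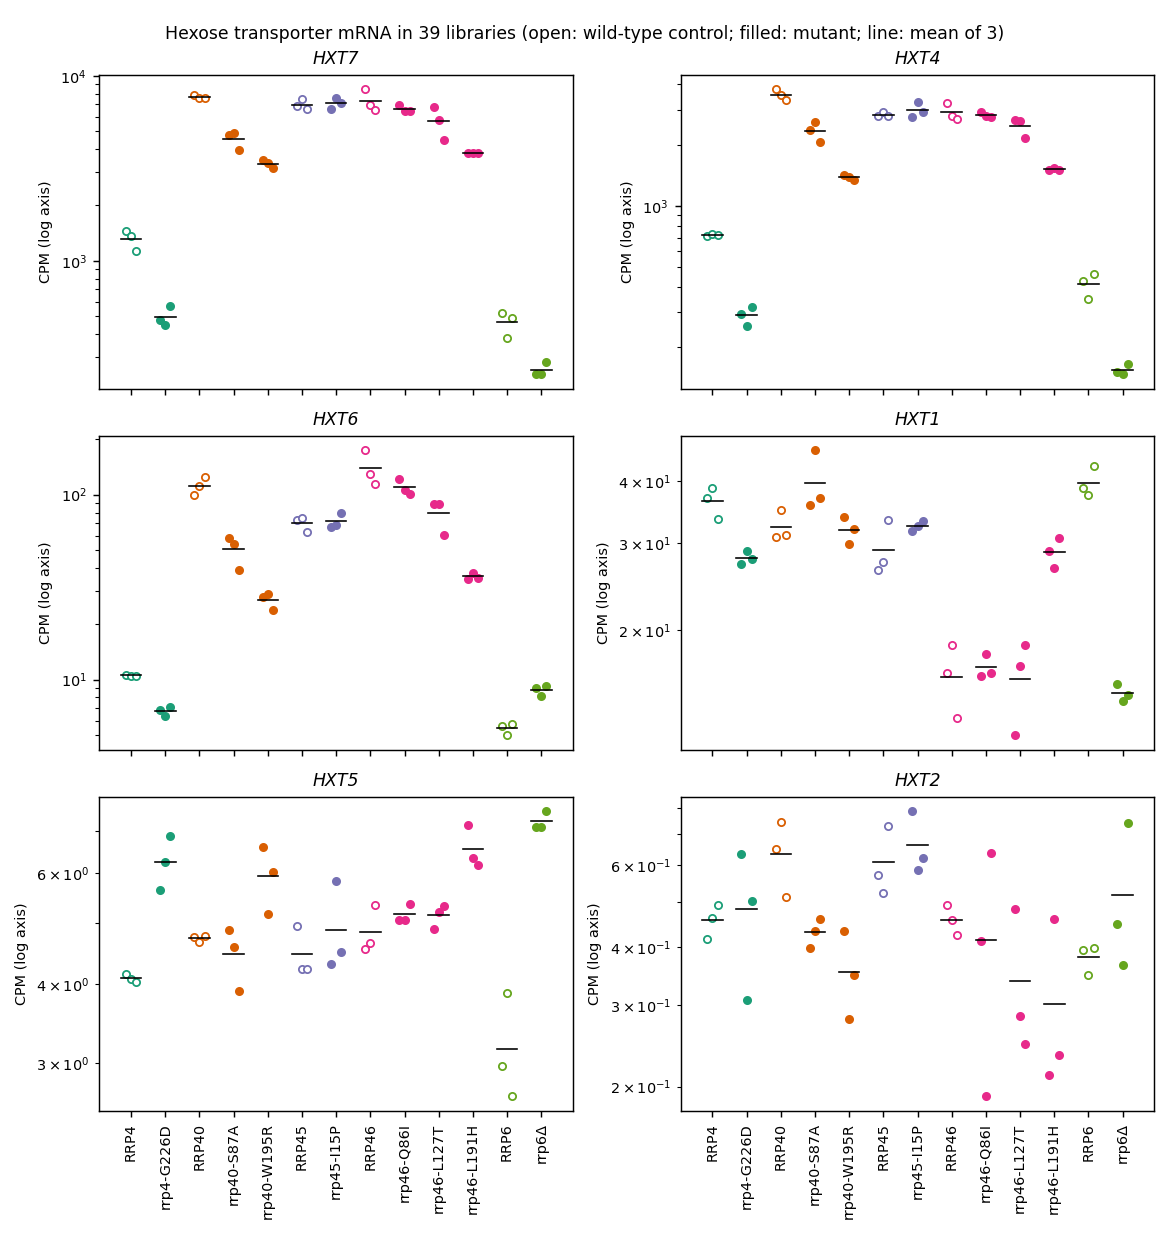
CPM of the 6 measured hexose transporter genes (log axes) in the 3 libraries of each group, with a line at the group mean, open points for wild-type controls and filled points for mutants. HXT7, HXT4 and HXT6 stand far lower in the RRP4 and RRP6 families than in the other families, whereas HXT1 is lowest in rrp6Δ and in 3 RRP46-family groups.

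The wild-type controls already differed in their transporter mRNAs. RRP40, RRP45 and RRP46 cells had high levels of HXT7, HXT4 and HXT6, and RRP4 and RRP6 cells had low levels. In RNA from whole cultures, fewer cells that express a gene and less of its RNA per cell cannot be told apart. HXT7 was at 7887, 7538 and 7604 CPM in RRP40 and at 524, 380 and 489 CPM in RRP6, and the highest control mean was 16.5 times the lowest. RRP45 (6884, 7449 and 6588 CPM) and RRP46 (8500, 6921 and 6546 CPM) overlapped in HXT7, while RRP4, at 1442, 1363 and 1123 CPM, lay clear of both sets. HXT4 followed the same division, with a highest control mean 8.66 times the lowest, and HXT6 did so with a ratio of 25.6. In HXT1 the control that stood apart was another: RRP46 had 16.4, 18.6 and 13.2 CPM, below all libraries of the other 4 controls, whose means lay between 29.1 and 39.7 CPM. HXT5, the transporter of slow growth, was lowest in RRP6 (2.97, 3.87 and 2.66 CPM) and had a highest control mean only 1.53 times the lowest.

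Among the 5 controls, 5 of the 6 tested members differed in edgeR's quasi-likelihood F test with Benjamini-Hochberg adjustment over all features, where 88.6% of features were called. The share of members called was thus not above that of all features. The adjusted p was 1.43e-10 for HXT7, 3.43e-14 for HXT4, 5.16e-10 for HXT6, 3.29e-07 for HXT1, 0.000657 for HXT5 and 0.0874 for HXT2. The controls differ in several of mating type, auxotrophies, deletion cassette and family at once, and the cause of these differences was not tested. RRP4 and RRP46 strains share mating type and the listed auxotrophies, and their HXT7 means were 1310 and 7322 CPM. Family and deletion cassette cannot be told apart in that pair. Genes of carbon metabolism stood apart in the same controls: HXK1, a hexokinase repressed by glucose, averaged 1386 CPM in RRP40, 1268 in RRP45 and 1479 in RRP46 but 160 in RRP4 and 87.3 in RRP6. GSY1, a glycogen synthase, averaged 751, 258 and 1232 CPM in the first 3 and 26.7 and 26.6 CPM in RRP4 and RRP6. HSP12, a stress-induced membrane protein, was higher in RRP4 (1098 CPM) and RRP6 (780) than in RRP46 (86.6). Its levels in RRP40 and RRP45 are not given here.

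Loss of Rrp6 lowered HXT1, HXT4 and HXT7 and raised HXT5 and HXT6. HXT1, the low affinity transporter, was at 38.7, 37.4 and 42.9 CPM in RRP6 and at 15.5, 14.3 and 14.8 CPM in rrp6Δ. The groups did not overlap, and the log2 fold change was -1.41 ± 0.06 (SE, n = 3 against 3; adjusted p = 4.32e-12 in edgeR's quasi-likelihood test, as for all later values of this kind). HXT4 went from 426, 346 and 462 CPM to 152, 147 and 165 CPM, a log2 fold change of -1.40 ± 0.10. HXT5 rose from 2.97, 3.87 and 2.66 CPM to 7.10, 7.10 and 7.52 CPM. This was 2.35-fold, and all rrp6Δ libraries lay above all RRP6 libraries (adjusted p = 9.44e-08). The share of all features whose groups did not overlap is not given here or below. A lack of overlap therefore describes the libraries of that gene only.

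The near-identical pair moved apart in rrp6Δ. HXT6 rose from 5.59, 4.99 and 5.74 CPM to 8.98, 8.17 and 9.27 CPM (log2 fold change 0.70 ± 0.10), and HXT7 fell from 524, 380 and 489 CPM to 243, 244 and 283 CPM (-0.85 ± 0.12, adjusted p = 0.000578). HXT6 made up 1.17% ± 0.121 of the counts of the pair in RRP6 and 3.33% ± 0.207 in rrp6Δ (SD, n = 3), the highest share of any group. HXT2 did not pass the test (log2 fold change 0.50 ± 0.32). In all, 5 of 6 tested members were called, 2 higher and 3 lower, where 83.5% of all tested features were called, 42.6% higher and 40.9% lower. The share of members called was thus near that of all features. Scaling by library totals in place of TMM moved the median of all features by 0.60 on the log2 scale; HXT7 then no longer passed (-0.24, adjusted p = 0.0662) and HXT2 did (1.10, adjusted p = 0.00564).

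rrp4-G226D, whose control also had low transporter levels, had less HXT7, HXT4, HXT6 and HXT1 mRNA and more HXT5 mRNA. HXT7 was at 1442, 1363 and 1123 CPM in RRP4 and at 478, 450 and 567 CPM in rrp4-G226D, a log2 fold change of -1.38 ± 0.13 (adjusted p = 0.000241). HXT4 was at 709, 728 and 723 CPM against 293, 255 and 317 CPM (-1.31 ± 0.07). Both genes were lower in each mutant library than in any control library, with no share of all features to set this against. HXT6 fell from a mean of 10.5 to 6.79 CPM, and HXT5 rose from 4.16, 4.07 and 4.03 CPM to 5.63, 6.25 and 6.87 CPM (0.64 ± 0.11 on the log2 scale). HXT1 fell by less, from 37.0, 38.7 and 33.6 CPM to 27.1, 28.8 and 27.8 CPM (-0.37 ± 0.06), and with library totals it did not pass the test (-0.04, adjusted p = 0.597). Here 5 of 6 members were called, 1 higher and 4 lower, against 71.9% of all features, 36.1% higher and 35.9% lower; library totals moved the median of all features by 0.33.

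rrp40-W195R lowered the high affinity genes and HXT4 from a high starting level, with no call for HXT1 or HXT5. HXT6 had the largest difference of the 6, from 99.8, 111 and 125 CPM in RRP40 to 28.1, 28.9 and 23.8 CPM, a log2 fold change of -2.08 ± 0.10 (adjusted p = 4.72e-07). HXT7 was at 3486, 3383 and 3191 CPM in the mutant (-1.22 ± 0.07), and HXT4 at 1425, 1396 and 1344 CPM against 3808, 3535 and 3334 CPM (-1.38 ± 0.07). None of these groups overlapped, with no share of all features to set this against. HXT1 was at 33.8, 29.9 and 32.0 CPM, overlapping its control (-0.04 ± 0.08, adjusted p = 0.71). That difference turned to 0.30 with library totals (adjusted p = 0.00755), which moved the median of all features by 0.33. HXT5, at 6.60, 5.16 and 6.02 CPM, lay above its control in each library but did not pass (0.31 ± 0.13, adjusted p = 0.0597), and it passed with library totals (0.64, adjusted p = 0.0015), in a joint fit of all 39 libraries (0.33, adjusted p = 0.016) and without rrp40-W195R replicate 2 (0.39, adjusted p = 0.0196).

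HXT2 passed by a small margin in rrp40-W195R (-0.82 ± 0.31, adjusted p = 0.0435) on 7 to 16 counts per mutant library, and it failed under library totals, DESeq2 and the omission of any of 4 libraries. Of the 6 members, 4 were called, all lower, where 52.5% of features were called, 26% higher and 26.5% lower.

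rrp40-S87A, set against the same controls, had less HXT7, HXT4 and HXT6 mRNA, with smaller differences than in rrp40-W195R. HXT7 was at 4804, 4901 and 3950 CPM, below all 3 RRP40 libraries, a log2 fold change of -0.74 ± 0.08 (adjusted p = 6e-05). HXT4 changed by -0.58 ± 0.08 (adjusted p = 0.000595). HXT6 changed by -1.14 ± 0.17 (adjusted p = 0.0147), a call that ended when RRP40 replicate 2 or rrp40-S87A replicate 2 was left out (adjusted p = 0.0615 and 0.0557). HXT1 was slightly higher, at 35.8, 46.3 and 37.0 CPM against 30.9, 35.0 and 31.1 CPM (0.31 ± 0.10, adjusted p = 0.0496), a call lost without any of 5 of the 6 libraries. The count was 4 of 6, 1 higher and 3 lower, where 15.5% of features were called, 7.69% higher and 7.8% lower. It was 2 without RRP40 replicate 2 and 2 without rrp40-S87A replicate 2.

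Set directly against each other, the RRP40 alleles differed in 5 of 6 members, where 38.8% of features were called. HXT4 was lower in rrp40-W195R by -0.78 ± 0.08 (adjusted p = 3.25e-05), HXT6 by -0.93 ± 0.14, HXT7 by -0.46 ± 0.09 and HXT1 by -0.33 ± 0.10, and HXT5 was higher by 0.40 ± 0.14 (adjusted p = 0.0376). The count fell to 3 without rrp40-S87A replicate 2. The HXT1 difference did not pass with library totals (-0.07, adjusted p = 0.559), and that of HXT5 did not pass by DESeq2 (0.39, adjusted p = 0.0597) or without any of 4 libraries.

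rrp46-L191H was the mutant in which HXT1 rose most. HXT1 went from 16.4, 18.6 and 13.2 CPM in RRP46 to 28.9, 26.6 and 30.7 CPM, a log2 fold change of 0.83 ± 0.11 (adjusted p = 8.11e-05), and the groups did not overlap. HXT6 fell from 174, 129 and 115 CPM to 35.1, 37.8 and 35.5 CPM (-1.95 ± 0.18). HXT7 stood at 3827, 3809 and 3804 CPM in the mutant against 8500, 6921 and 6546 CPM (-0.94 ± 0.08), and HXT4 at 1504, 1549 and 1505 CPM against 3227, 2809 and 2715 CPM (-0.94 ± 0.06). All mutant libraries were below all control libraries in these 3 genes, again with no share of all features to set this against. HXT5 rose from 4.55, 4.64 and 5.34 CPM to 7.16, 6.34 and 6.17 CPM (0.43 ± 0.11, adjusted p = 0.00388). The count was 5 of 6, 2 higher and 3 lower, where 62.4% of features were called, 31.4% higher and 31% lower; library totals moved the median of all features by 0.17.

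The other RRP46 alleles and rrp45-I15P gave no call among the 6 members in the main edgeR test. In rrp46-L127T, where 5.24% of features were called, HXT6 had a log2 fold change of -0.83 ± 0.24 (adjusted p = 0.142; 88.9, 88.8 and 60.6 CPM) and HXT7 one of -0.37 ± 0.18 (adjusted p = 0.288; 6801, 5800 and 4481 CPM). In edgeR without adjustment, 2 members of rrp46-L127T, HXT6 and HXT4, were under 0.05, and DESeq2 called 1 member, HXT6 (adjusted p = 0.0186). The joint edgeR fit of 39 libraries also called HXT6 (-0.82, adjusted p = 0.000297), where 1063 of all features were called. With replicate number as a block, edgeR called HXT6 (-0.82, adjusted p = 0.00148) and HXT7 (-0.38, adjusted p = 0.0143). The authors' deposited table for rrp46-L127T passes HXT6 (-0.72, adjusted p = 0.00046) and HXT4 (-0.18, adjusted p = 0.0262). In rrp46-Q86I, where 0.515% of features were called, the 6 log2 fold changes lay between -0.36 for HXT6 and 0.08 for HXT5. In rrp45-I15P, where 0.0266% of features were called, they lay between 0.03 for HXT7 and 0.16 for HXT1. In these last 2 comparisons no member had an unadjusted p under 0.05 in the main test, and DESeq2 called 0 as well. With replicate number as a block, edgeR called HXT6 in rrp46-Q86I (-0.34, adjusted p = 0.0202).

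Direct comparison of the RRP46 alleles placed rrp46-L191H apart from the other 2. Against rrp46-Q86I, 5 of 6 members were called, where 64.4% of features were: HXT1 was higher by 0.77 ± 0.07 and HXT5 by 0.34 ± 0.11, and HXT6 (-1.60 ± 0.07), HXT4 (-0.89 ± 0.05) and HXT7 (-0.80 ± 0.06) were lower. The HXT5 call ended without rrp46-L191H replicate 1 (0.28, adjusted p = 0.0582). Against rrp46-L127T, the 5 tested members were called, where 51.5% of features were. HXT1 was higher by 0.83 ± 0.12, and HXT6 (-1.13 ± 0.16) and HXT4 (-0.72 ± 0.08) were lower. There the HXT7 difference (-0.58 ± 0.14) did not pass with library totals (-0.38, adjusted p = 0.0613), and that of HXT5 (0.34 ± 0.11) did not pass by DESeq2 (0.35, adjusted p = 0.0647) or without either of 2 libraries. Between rrp46-L127T and rrp46-Q86I, where 0.604% of features were called, 0 members passed. In edgeR without adjustment 2 members, HXT6 and HXT4, were under 0.05, and DESeq2 called 0. With replicate number as a block, edgeR called HXT6 (-0.48, adjusted p = 0.0301).

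**Figure D2:**
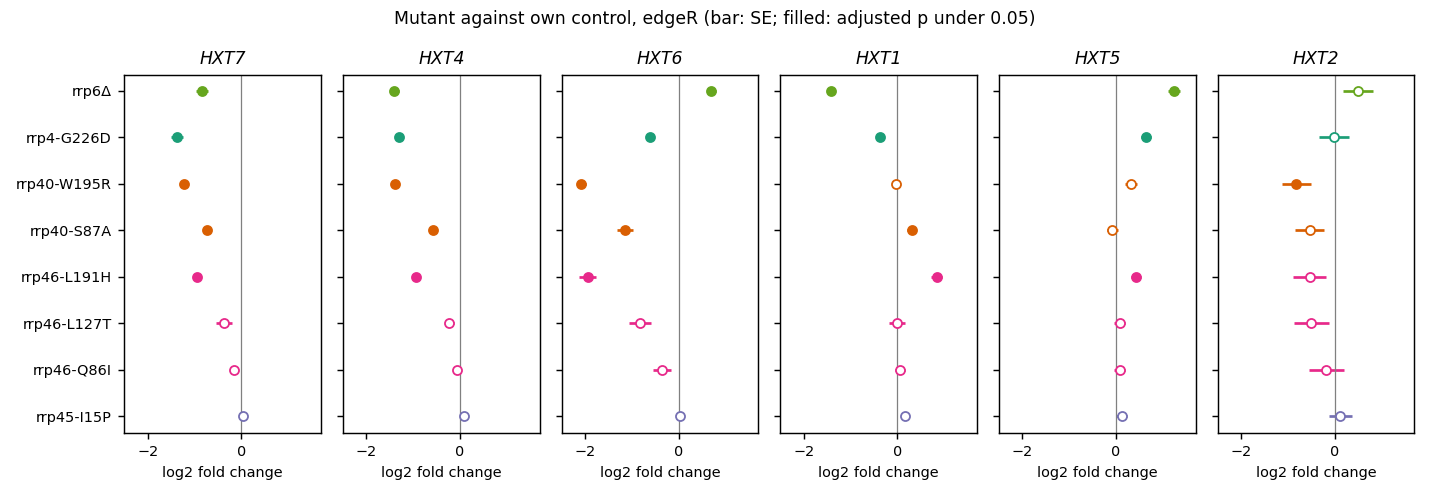
Log2 fold change of each measured hexose transporter gene in each mutant against the control of its family, with bars for the standard error and filled points for an adjusted p under 0.05. Among called values, HXT7 and HXT4 lie below 0 in the same 5 mutants, and HXT6 lies above 0 only in rrp6Δ. Uncalled values of HXT7 and HXT4 also lie below 0 in rrp46-L127T and rrp46-Q86I. HXT1 runs from -1.41 in rrp6Δ to 0.83 in rrp46-L191H.

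Since reads of HXT6 and HXT7 may be shared, the pair was also tested as 1 summed gene. The sum changed by -0.81 ± 0.12 in rrp6Δ (adjusted p = 0.000556), -1.37 ± 0.13 in rrp4-G226D, -1.23 ± 0.07 in rrp40-W195R, -0.75 ± 0.08 in rrp40-S87A and -0.96 ± 0.08 in rrp46-L191H, each within 0.05 of the value of HXT7 alone. That closeness was bound to arise, since the mean share of HXT6 in the counts of the pair was at most 3.33% (rrp6Δ). It says nothing of how reads were divided between the 2 genes.

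Across the 8 comparisons with a control, HXT7 and HXT4 were called in 5 each, lower every time. HXT6 was called in 5, lower in 4 and higher in rrp6Δ. HXT5 was called in 3, higher every time, HXT1 in 4, higher in 2 and lower in 2, and HXT2 in 1. Comparisons in the RRP40 family share their control libraries, and so do those in the RRP46 family. In the authors' deposited table for rrp6Δ the log2 fold change was -1.42 for HXT1, 1.19 for HXT5 and 0.66 for HXT6, and in the authors' deposited table for rrp46-L191H it was 0.81 for HXT1 and -1.91 for HXT6. In the authors' deposited table for rrp40-W195R HXT2 does not pass (-0.37, adjusted p = 0.101), and its value there is smaller in size than the -0.82 found here.

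The effect of 3 missense alleles was compared with that of Rrp6 loss by an interaction contrast over 12 libraries, with no control shared. In HXT1 and HXT6 all 3 contrasts were called. For HXT1 the missense log2 fold change lay above that of rrp6Δ by 1.02 ± 0.09 in rrp4-G226D, 1.37 ± 0.10 in rrp40-W195R and 2.24 ± 0.13 in rrp46-L191H. HXT1 fell by less in rrp4-G226D (-0.37) than in rrp6Δ (-1.41), had no called change in rrp40-W195R (-0.04) and rose in rrp46-L191H (0.83). For HXT6 the missense log2 fold change lay below that of rrp6Δ, with contrasts of -1.35 ± 0.12, -2.78 ± 0.14 and -2.65 ± 0.23 in the same order of alleles. For HXT5, which rose most in rrp6Δ, the contrasts were -0.63 ± 0.17, -0.92 ± 0.18 and -0.81 ± 0.17, all called. HXT2 was called in rrp40-W195R (-1.32 ± 0.47, adjusted p = 0.0205), a call lost without rrp6Δ replicate 3 (-0.92, adjusted p = 0.0713). In rrp46-L191H it was not called (-1.04 ± 0.50, adjusted p = 0.0684) but passed with library totals (-1.47, adjusted p = 0.0117).

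HXT4 and HXT7 showed smaller differences of effect. The HXT4 contrast passed in rrp46-L191H (0.45 ± 0.12, adjusted p = 0.00413) and was 0.07 ± 0.14 in rrp4-G226D and 0.02 ± 0.12 in rrp40-W195R. HXT7 differed by -0.56 ± 0.20 in rrp4-G226D (adjusted p = 0.0421) and -0.37 ± 0.13 in rrp40-W195R (adjusted p = 0.0237), and by -0.10 ± 0.17 in rrp46-L191H (adjusted p = 0.6). With library totals, which moved the median of all features by -0.43 in the rrp46-L191H contrast, HXT4 no longer passed there (0.02, adjusted p = 0.878) and HXT7 did (-0.54, adjusted p = 0.00957). The HXT7 call in rrp4-G226D was lost with RLE factors (-0.54, adjusted p = 0.0511) and without any of 9 of the 12 libraries, and that in rrp40-W195R was lost in the joint fit of 39 libraries (-0.34, adjusted p = 0.0948). The members called were 4, 5 and 4 of 6 in the order rrp4-G226D, rrp40-W195R, rrp46-L191H, where 48.6%, 61.4% and 71.3% of features were called.

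As a sign of glucose state, the summed level of the high affinity genes HXT2, HXT6 and HXT7 was divided by the level of HXT1, per kilobase, within each library. The ratio is a description of chosen genes and has no test, and since HXT7 supplies nearly all of its numerator it is in effect HXT7 against HXT1. Its log2 was 3.78, 3.36 and 3.53 in RRP6 and 4.03, 4.14 and 4.31 in rrp6Δ, so that rrp6Δ was 0.60 higher with no overlap. In rrp4-G226D it was 4.16, 3.99 and 4.37 against 5.29, 5.15 and 5.08 in RRP4, a difference of -1.003. rrp40-W195R (-1.19), rrp40-S87A (-1.06) and rrp46-L191H (-1.80) were also below their controls.

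The remaining alleles differed from their controls by less than the larger SD of the pair: -0.36 in rrp46-L127T (SD 0.61), -0.21 in rrp46-Q86I (SD 0.26) and -0.14 in rrp45-I15P (SD 0.25). Over the 13 groups the mean ratio ran from 11.8 in RRP6 to 466 in RRP46. The rise in rrp6Δ came with a fall in both genes of the ratio, HXT1 by 1.41 and HXT7 by 0.85 on the log2 scale. In rrp46-L191H, by contrast, HXT7 fell and HXT1 rose.

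**Figure D3:**
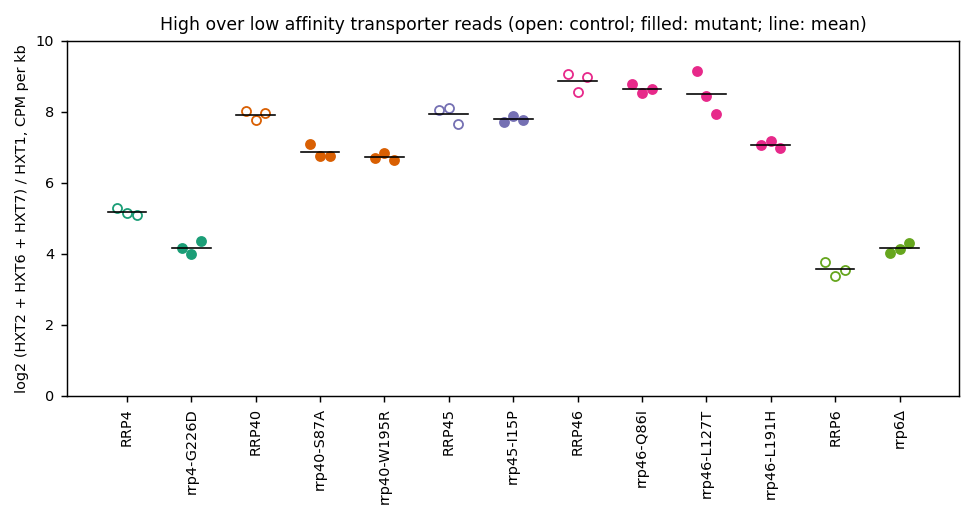
Log2 ratio of high affinity (HXT2, HXT6 and HXT7) to low affinity (HXT1) transporter reads per kilobase in each of 39 libraries, with a line at the group mean, open points for controls and filled points for mutants. The RRP4 and RRP6 families lie below 5.3, the other families lie above 6.6, and rrp6Δ is the mutant above its control.

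Over the 13 group means, the log2 CPM of HXT4 and HXT7 had a Pearson r of 0.99, that of HXT6 and HXT7 one of 0.95, and that of HXT1 and HXT7 one of -0.04. HXT5 had an r of -0.50 with HXT1 and of -0.12 with HXT7. These are descriptions without a test, and the means of a family share a strain background. Among features with a mean of at least 10 CPM, the profiles most like HXT7 were those of UBP11, a ubiquitin protease (0.99), HXT4 and TUL1 (0.99). Those most like HXT1 were RRS1 (0.94), TSR4 (0.94) and RPC11 (0.93), which act in ribosome assembly for the first pair and in RNA polymerase III for the last. Those most like HXT6 were GPT2, NDI1 and DUF1, with r of 0.98 to 0.99.

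HXK2 fell in each of the 5 mutants with called transporter genes. It encodes the main hexokinase of glucose-grown cells and helps to repress genes in glucose. Its mean was 651 CPM in RRP6 and 197 in rrp6Δ (log2 fold change -1.71), 840 in RRP4 and 331 in rrp4-G226D (-1.33), 1383 in RRP40 and 651 in rrp40-W195R (-1.11), and 1578 in RRP46 and 810 in rrp46-L191H (-0.97). In rrp40-S87A it changed by -0.40 (adjusted p = 0.000536). With library totals the HXK2 values lay between -1.11 and -0.35, all called. GLC7, the catalytic subunit of protein phosphatase 1, was also lower in all 5 (-1.05 in rrp6Δ, -0.41 in rrp40-W195R, -0.40 in rrp4-G226D, -0.18 in rrp40-S87A and -0.17 in rrp46-L191H), but with library totals it passed in rrp6Δ (-0.44) and in none of the other 4.

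RGT1, the HXT repressor, rose in rrp46-L191H (0.93, from 256 to 490 CPM), rrp4-G226D (0.63), rrp6Δ (0.58) and rrp40-W195R (0.30). STD1, which works with Rgt1, rose in rrp40-W195R (0.73), rrp40-S87A (0.58) and rrp46-L191H (0.26). Of the 18 glucose sensing and regulator genes, 16 were tested, and MTH1 and MIG2 were listed at 0 throughout.

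The tested regulators split into 4 higher and 9 lower in rrp6Δ (median log2 fold change -0.20, against 0.03 over all features), where 42.6% and 40.9% of all features were called higher and lower. They split into 4 and 9 in rrp4-G226D (-0.25; all features 36.1% and 35.9%), 3 and 5 in rrp40-W195R (-0.09; 26% and 26.5%), 1 and 2 in rrp40-S87A (0.00; 7.69% and 7.8%), and 4 and 11 in rrp46-L191H (-0.19; 31.4% and 31%). The share of regulators called in rrp6Δ was thus near that of all features, and the direction of the list turned with the scaling. With library totals the split was 12 higher and 2 lower in rrp6Δ, 12 and 1 in rrp40-W195R, 7 and 3 in rrp4-G226D, 3 and 1 in rrp40-S87A, and 5 and 6 in rrp46-L191H. Shares of all features called with library totals are not given here, for this list or for those below. That scaling raised the median of all features by 0.60 in rrp6Δ and by 0.33 in rrp40-W195R, so these counts cannot be read as a trait of the list. In rrp46-L127T, where 2.63% of features were called higher and 2.62% lower, 1 regulator fell, SNF3, the high affinity glucose sensor (-0.26).

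Genes that glucose represses did not move as one. SUC2, which encodes invertase, fell in all 5 mutants: from 355 to 107 CPM in rrp40-W195R (-1.75), to 200 CPM in rrp40-S87A (-0.82), from 271 to 119 CPM in rrp46-L191H (-1.19), from 67.5 to 37.6 CPM in rrp6Δ (-0.84) and from 90.5 to 61.6 CPM in rrp4-G226D (-0.54). HXK1 fell in rrp40-W195R (-1.17), rrp46-L191H (-1.07), rrp4-G226D (-0.84), rrp46-L127T (-0.49, adjusted p = 0.0481) and rrp40-S87A (-0.41), and in rrp6Δ it was 0.01 (adjusted p = 0.92), which became 0.61 with library totals (adjusted p = 0.000231). Of 12 tested genes of the list of 15, 1 rose and 8 fell in rrp40-W195R (median -0.46), where 26% of all features rose and 26.5% fell. The counts were 0 and 7 in rrp40-S87A (-0.35; all features 7.69% and 7.8%), 1 and 9 in rrp46-L191H (-0.40; 31.4% and 31%), and 0 and 5 in rrp46-L127T (-0.35; 2.63% and 2.62%). With library totals they were 1 and 5, 0 and 5, 3 and 6, and 0 and 5 in the same order, with no share of all features to set beside them.

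In rrp6Δ 7 genes of the same list were higher and 3 lower (median 0.74), where 42.6% of all features were called higher and 40.9% lower. In rrp4-G226D 7 were higher and 4 lower (median 0.34, all features 36.1% and 35.9%). With library totals the counts were 9 and 2 in rrp6Δ and 8 and 4 in rrp4-G226D, again with no share of all features. The genes that rose there included REG2, a regulatory subunit of protein phosphatase 1 (1.33 and 1.18), and MLS1, malate synthase (1.17 and 1.15). MLS1 fell in rrp40-W195R (-0.72) and rrp40-S87A (-0.95). ADR1, an activator of glucose-repressed genes, rose in rrp6Δ (1.55) and rrp4-G226D (0.43) and fell in rrp40-W195R (-0.53), rrp46-L191H (-0.28) and rrp46-L127T (-0.27). FBP1, ICL1 and JEN1 were listed at 0 in all libraries.

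**Figure D4:**
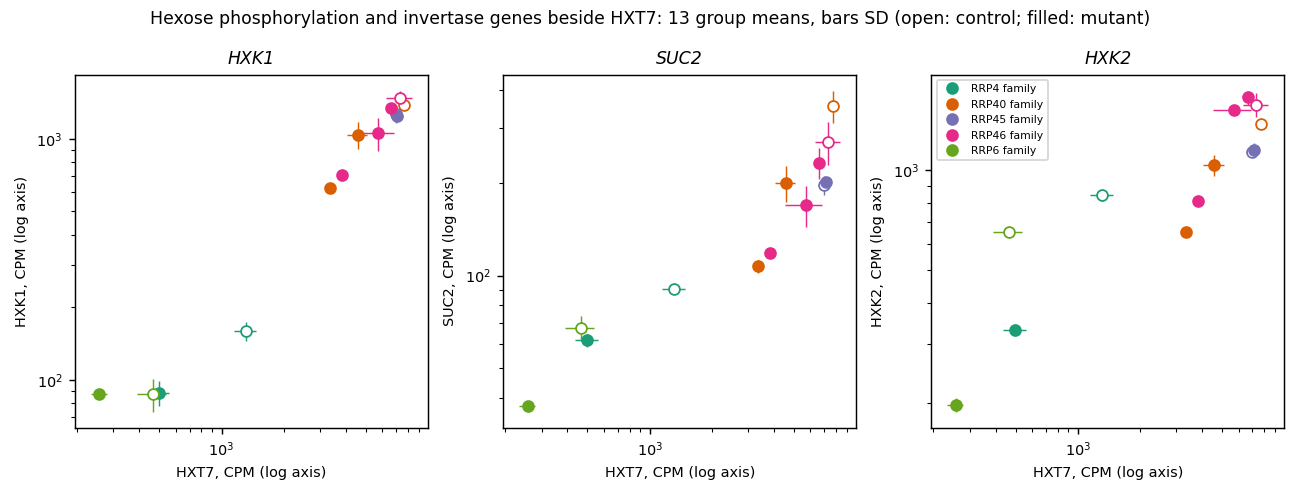
Group mean CPM of HXK1, SUC2 and HXK2 against that of HXT7 (log axes), with bars for the SD of 3 libraries, open points for controls and filled points for mutants. The RRP4 and RRP6 families occupy the low end of HXT7 and HXK1, and rrp6Δ has the lowest mean of HXT7, SUC2 and HXK2.

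Genes of stress and reserve carbohydrates were lower in rrp40-W195R and rrp46-L191H. In rrp40-W195R 9 of 13 tested genes of the list fell and 0 rose (median -0.58), where 26.5% of all features fell, and in rrp46-L191H 11 fell and 0 rose (-0.52), where 31% fell. With library totals 3 fell in rrp40-W195R and 10 in rrp46-L191H, with no share of all features for that scaling. GSY1 fell in both (-1.14 and -1.13), as did GPH1, glycogen phosphorylase (-1.18 and -1.10). GSY1 rose in rrp6Δ (1.37) and rrp4-G226D (0.47).

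In rrp46-L127T 2 genes of that list fell (GSY1 -0.39, GSY2 -0.38), where 2.62% of all features fell. In rrp6Δ 5 rose and 5 fell (median -0.04), where 42.6% of all features rose and 40.9% fell, and in rrp4-G226D 6 rose and 7 fell (-0.11; all features 36.1% and 35.9%). With library totals these splits were 9 and 4, and 7 and 3, and in rrp46-L127T 5 fell, again with no share of all features. DDR2, a stress gene, rose in rrp6Δ (1.65) and rrp4-G226D (2.11), where GPH1 (-1.40 and -1.28) and UGP1, which makes UDP-glucose (-1.47 and -1.19), fell. UGP1 also fell in rrp40-W195R (-0.58) and rrp46-L191H (-0.55).

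Other members of the hexose transporter family, which are little used on glucose, rose in 4 mutants. Of HXT8 to HXT11, HXT13 to HXT17 and GAL2, 9 of 10 rose and 0 fell in rrp6Δ (median 0.80), where 42.6% of all features rose, and in rrp4-G226D (0.53), where 36.1% did. In rrp40-W195R 5 rose (0.25; all features 26%), and in rrp46-L191H 6 rose and 1 fell (0.35; 31.4%). With library totals 10, 9, 8 and 7 rose in the same order, with no share of all features to set beside these counts. HXT17 went from 19.5 to 37.8 CPM in rrp6Δ (0.95) and HXT9 from 9.72 to 16.6 CPM in rrp46-L191H (0.77), and both rose in all 4. Several of these genes are close copies of each other, so their separate values are uncertain.

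Non-coding transcripts listed beside the members rose in rrp6Δ. The 20 features that neighbour the 7 genes in the order of the count files are mostly cryptic unstable transcripts (CUT) and stable unannotated transcripts (SUT), the first of which are known substrates of Rrp6, and they were picked after their values had been seen. Of 19 tested, 17 rose and 1 fell in rrp6Δ, where 42.6% of all features rose. The counts were 10 and 2 in rrp4-G226D (36.1% of all features rose), 9 and 1 in rrp40-W195R (26%), and 8 and 4 in rrp46-L191H (31.4%). SUT356 went from 20.7 ± 1.95 to 55.6 ± 1.79 CPM in rrp6Δ (log2 fold change 1.45 ± 0.06), and SUT593 from 7.31 ± 0.107 to 20.8 ± 2.15 CPM (1.53 ± 0.09). The strand setting of the counts is not given in the sources used here, so reads of a member and of a transcript that overlaps it cannot be told apart; the part of these transcripts in the HXT values was not tested.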

How the data were processed

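RNA was depleted of rRNA, and libraries were made with the Zymo-Seq RiboFree kit, per the labels' protocols. Per the submitters' processing notes, the tools were STAR, featureCounts 1.22.2, StringTie 2.1.7 and DESeq2 1.38.1 with build R64; their options, including strand and reads matching several places, are not given in the sources used here. The deposited files of the authors hold raw counts per feature, one file per library. Per the file headers, the authors' deposited comparison tables hold log2 fold changes, p-values and a mean normalized signal per feature (baseMean). Single log2 fold changes and adjusted p-values were quoted from them, and nothing was tested on them. How the authors estimated their log2 fold changes is not given in the sources used here, so their sizes may not compare directly with those fitted here.

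Tests were made on the counts in R 4.3.3 with edgeR 4.0.16 (default expression filter, TMM factors, robust quasi-likelihood F test, two-sided, no covariate, Benjamini-Hochberg adjustment over all tested features). A feature was called at an adjusted p under 0.05. Each comparison used its own libraries: 8 of a mutant with its control, 4 of alleles of one gene, 1 over the 5 controls and 3 interaction contrasts. Levels are CPM with TMM factors over 39 libraries, so they differ slightly from the fitted fold changes. The procedure was tested on simulated data. Alternatives were RLE factors, library totals, no filter, DESeq2 1.42.0, a joint fit, a replicate block, HXT6 and HXT7 summed, an added limit of 1 on the log2 fold change, and each library left out. Library totals were applied to the gene lists after seeing the data. Libraries of a group differed beyond counting noise, so none was the same library sequenced again. This does not show that they came from separate cultures.

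All 7 members were examined in every comparison, but not every value is printed. From each list the 3 called genes with the largest log2 fold change and a mean of at least 10 CPM could be named. The values of a named gene in the other mutants and levels of other listed genes for the controls were added. For each member the 3 most alike features could be named. Members and lists were chosen with earlier results of these data known. Sequences and coordinates are from the RefSeq annotation of build R64.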

Additional observations from a re-analysis of the deposited data

Results flagged for a closer look

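The effect of a missense allele differed from the effect of Rrp6 loss by an interaction contrast (edgeR, 12 libraries, adjusted over all features) in 13 of 18 member values, where 48.6%, 61.4% and 71.3% of all features were called in the 3 contrasts. For rrp4-G226D the difference of log2 fold changes was 1.02 in HXT1, -0.63 in HXT5, -1.35 in HXT6 and -0.56 in HXT7. For rrp40-W195R it was 1.37 in HXT1, -0.92 in HXT5, -1.32 in HXT2, -2.78 in HXT6 and -0.37 in HXT7. For rrp46-L191H it was 2.24 in HXT1, 0.45 in HXT4, -0.81 in HXT5 and -2.65 in HXT6. A negative value means that the missense effect lay below that of rrp6Δ. In HXT1 the rrp46-L191H libraries all lay above their control and the rrp6Δ libraries all lay below theirs. In HXT6 the rrp6Δ libraries all lay above RRP6, and each of the 3 missense groups lay wholly below its own control. The HXT2 value rests on 7 to 58 counts per library in these 4 groups and ended without rrp6Δ replicate 3 (-0.92, adjusted p = 0.0713). The HXT7 value of rrp4-G226D did not pass with RLE factors (-0.54, adjusted p = 0.0511), that of rrp40-W195R did not pass in the joint fit of 39 libraries (-0.34, adjusted p = 0.0948), and the HXT4 value of rrp46-L191H did not pass with library totals (0.02, adjusted p = 0.878).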

How the results depend on the processing

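Each of 89 member log2 fold changes was recomputed under the alternatives, 1153 values in all. Of these, 1058 kept direction and call, 43 kept direction and lost the call, 14 gained one and 38 changed sign; the cause was not tested. With an added limit of 1 on the log2 fold change, the members called went to 3 in rrp6Δ, 3 in rrp40-W195R, 2 in rrp4-G226D, 1 in rrp40-S87A, 1 in rrp46-L191H, and, between alleles, 0 for rrp40-W195R against rrp40-S87A, 1 for rrp46-L191H against rrp46-Q86I and 1 against rrp46-L127T. The shares of all features under that limit are not given here, so those counts cannot be set against them. In rrp46-L127T the count was 1 by DESeq2 and 1 in the joint fit of 39 libraries, where 616 and 1063 of all features were called. Same-numbered libraries gave no sign of deviating together (no comparison had all 3 correlations above 0.1), so no pairing was used in the main tests. This check cannot show that libraries were not handled in numbered sets. With the replicate block the count became 2 in rrp46-L127T, 1 in rrp46-Q86I and 1 for rrp46-L127T against rrp46-Q86I, was 3 in rrp40-W195R and 3 in rrp40-S87A, and stayed at its value elsewhere. Shares of all features with the block are not given here either. Leaving out 1 library gave 2 to 4 members in rrp40-S87A and 3 to 5 between the RRP40 alleles. Adding HXT4 to the high affinity genes moved the rise of the affinity ratio in rrp6Δ from 0.60 to 0.36, and no other setting moved a ratio by more than the larger SD.

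Values that changed sign were small and uncalled in the main test. With library totals they were HXT2 in rrp4-G226D (0.31), HXT1 in rrp40-W195R (0.30), HXT6 and HXT7 in rrp45-I15P (-0.004 and -0.011), HXT5 between rrp46-L127T and rrp46-Q86I (0.016), and the HXT4 contrasts with rrp6Δ of rrp4-G226D (-0.18) and rrp40-W195R (-0.25, and -0.001 with RLE factors). HXT2 in rrp4-G226D was 0.03 by DESeq2, and HXT1 in rrp46-L127T 0.007 in the joint fit. Leaving out single libraries gave -0.077 to 0.018 for HXT1 in rrp40-W195R, -0.134 to 0.138 for HXT1 in rrp46-L127T, -0.073 to 0.178 for HXT1, -0.112 to 0.023 for HXT4 and -0.601 to 0.177 for HXT2 in rrp46-Q86I, -0.237 to 0.283 for HXT2 in rrp4-G226D, -0.15 to 0.009 for HXT5 in rrp40-S87A, and -0.019 to 0.195 for HXT5, -0.055 to 0.079 for HXT6 and -0.022 to 0.076 for HXT7 in rrp45-I15P. Between alleles it gave -0.846 to 0.055 for HXT2 (rrp46-L191H against rrp46-Q86I), and -0.192 to 0.077 for HXT1 and -0.027 to 0.024 for HXT5 (rrp46-L127T against rrp46-Q86I). For contrasts with rrp6Δ it gave -0.023 to 0.171 and -0.071 to 0.129 for HXT4 (rrp4-G226D and rrp40-W195R) and -0.189 to 0.023 for HXT7 (rrp46-L191H). The number of all features called moved by over 1.5 times in rrp46-L127T (393, with 616 by DESeq2, 1063 in the joint fit and 66 to 775 without 1 library), rrp46-Q86I (39, with 11 to 135), rrp45-I15P (2, with 0 to 68), rrp46-L127T against rrp46-Q86I (45, with 5 to 585), rrp40-S87A (1144, with 469 without RRP40 replicate 2 and 573 without rrp40-S87A replicate 3) and between the RRP40 alleles (2911, with 4750 by library totals). Depth limits HXT2, at 6 to 58 counts per library, more than any other measured member.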

Other observations

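The share of HXT6 in the counts of the HXT6 and HXT7 pair varied between groups; no test was run on it. The share was 0.806% ± 0.101 in RRP4, 1.44% ± 0.183 in RRP40, 0.997% ± 0.0547 in RRP45, 1.86% ± 0.146 in RRP46 and 1.17% ± 0.121 in RRP6 (SD, n = 3). Libraries of RRP40 and RRP6 overlapped. The share was 0.795% ± 0.0523 in rrp40-W195R, 1.09% ± 0.109 in rrp40-S87A, 0.939% ± 0.038 in rrp46-L191H, 1.29%, 1.51% and 1.34% in the rrp46-L127T libraries and 1.62% ± 0.0899 in rrp46-Q86I, lower in each library than in any library of the control. In rrp45-I15P, at 1.002% ± 0.104, it overlapped its control, and it was 1.35% ± 0.0991 in rrp4-G226D, higher in each. The handling of reads that match both genes is not given in the sources used here.

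TPS2, which makes trehalose, and PGM2, which feeds glycogen synthesis, followed HXT7 in the division of the controls. TPS2 averaged 1083 CPM in RRP40, 609 in RRP45 and 1436 in RRP46, and 164 and 141 CPM in RRP4 and RRP6. PGM2 averaged 432, 163 and 816 CPM in the first 3 and 60.4 and 52.1 CPM in RRP4 and RRP6. Both were named after their values were seen.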
